A study of Mus musculus with 183 samples.

Results

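The mRNAs of the nuclear genes for complexes I to IV of the respiratory chain were followed in mouse embryonic stem cells (mESCs). Members were the protein-coding genes whose symbols name an Ndufa, Ndufb, Ndufc, Ndufs or Ndufv subunit, Ndufab1, a Uqcr subunit, a Cox4 to Cox8 subunit, or Sdha, Sdhb, Sdhc or Sdhd. This rule gave 67 of the 53380 genes with counts, of which 21865 were protein-coding. The study measured RNA levels by RNA-seq, RNA decay after a block of transcription, and the RNA bound by decay factors by crosslinking and analysis of cDNAs (CRAC), in which a tagged protein is crosslinked to RNA in living cells and the attached RNA fragments are sequenced.

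The CRAC values came from separate lines, in which Skiv2l, Xrn1, Mtr4 or Aven carried a FLAG and Avi tag on both alleles. The study's list gives these lines as Rosa26 Cre-ERT2/BirA-V5. Binding to different proteins was therefore measured in different lines, and none of these was a clone of the decay course. The decay course held 47 RNA-seq libraries from 2 clones. Clone 5F carried Skiv2l fl/fl and Rosa26 Cre-ERT2/-. Clone 7E was Aven-/- and carried Rosa26 Cre-ERT2/BirA-V6 and 3xFLAG-Avi on both Skiv2l alleles. BirA-V6 is the name in these labels, and the study's list of lines has BirA-V5. The labels of these libraries do not give fl/fl for clone 7E, whereas other labels and the study's methods do. Both clones were sampled at day 0 and at day 4 of 0.1 µM 4-hydroxytamoxifen (4OHT), which activates the Cre-ERT2 recombinase, and then received DMSO for 360 min (mock) or actinomycin D, a blocker of transcription, for 120, 240 or 360 min. The actinomycin D dose is 5 µg/µl in the labels and is a molar concentration in the study's methods. Each group had 3 libraries, except for 2 at 120 min in clone 5F at day 0. The study describes the replicates as technical, so p-values measure the spread between these libraries, not between clones. Each genotype was 1 clone, so clone, tag, BirA and Aven genotype cannot be told apart.

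The respiratory chain passes electrons from NADH and succinate to oxygen and pumps protons across the inner mitochondrial membrane. NADH enters at complex I, succinate at complex II, complex III passes electrons on to cytochrome c, and complex IV reduces oxygen. A few hydrophobic core subunits are encoded in mitochondrial DNA, and all others are made in the cytoplasm from nuclear mRNAs, many of them short. In the cytoplasm mRNAs are degraded from the 5′ end by XRN1 and from the 3′ end by the exosome with the Ski complex helicase SKIV2L, while MTR4 serves the exosome in the nucleus and AVEN is a partner of the Ski complex.

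Library totals ran from 24440935 to 34114250 counts. In mock libraries Skiv2l stood at 148 ± 0.290 CPM (counts scaled to a common library total; SD, n = 3) in clone 5F at day 0 and at 143 ± 10.4 at day 4. These counts did not show the deletion, and the second group is called the libraries labelled day 4. The study's deletion removes only some exons of Skiv2l, and the study tested recombination by RT-qPCR or western blot. Counts over the whole gene need not fall after it, so they cannot tell whether the deletion took place in clone 5F. In clone 7E Skiv2l stood at 33.6 ± 2.46 CPM at day 0 and 13.1 ± 0.703 at day 4. Skiv2l counts were thus already lower in clone 7E than in clone 5F before 4OHT. The part of this in the differences between the clones and in the response of clone 7E was not tested. Aven stood at 33.7 to 35.6 CPM in the means of clone 5F and 1.62 to 2.32 in those of clone 7E. All 8 mESC markers had means of at least 10 CPM in each of the 4 groups. Their summed level per library ran from 3257 to 3314 CPM in clone 5F at day 0 and 2989 to 3113 at day 4, and from 3310 to 3434 and 2760 to 2849 in clone 7E. The 6 endoderm markers summed to 110 to 116 and 87.3 to 89.3 CPM in clone 5F and to 13.4 to 15.1 and 17.7 to 18.4 CPM in clone 7E. The 4 neuroectoderm markers summed to 123 to 126 and 134 to 147 CPM in clone 5F and to 176 to 179 and 197 to 219 CPM in clone 7E, while the mesoderm and fibroblast feeder lists stayed at or under 7.42 and 8.45 CPM in every mock library. In bulk RNA, fewer cells of a type and less RNA per cell cannot be told apart, and the part of these marker shifts in the results was not tested.

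Respiratory chain mRNAs were abundant before any treatment. Levels were compared between genes per length, as normalized mock CPM per kilobase of the principal transcript. In clone 5F at day 0 the median over the 63 members that passed the filter on low counts was 82.2, against 6.68 over 14031 protein-coding genes. Of these members, 59 were above the median of all genes and 42 were in the highest 10%. Their principal transcripts had a median length of 861 nt, against 3016 nt over all genes. The other 4 members, Ndufs5, Cox6a2, Cox8b and Cox8c, did not pass the filter. Together the members took 0.650% ± 0.00645 (SD, n = 3) of the counts in clone 5F at day 0, 0.597% ± 0.0172 in the libraries labelled day 4, 0.676% ± 0.0131 in clone 7E at day 0 and 0.632% ± 0.0116 at day 4.

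Levels per length differed among the complexes. The median was 72.0 over the 7 core subunits of complex I and 76.4 over 28 of its 29 accessory subunits. It was 98.0 over the 4 subunits of complex II, 147 over the 8 of complex III and 193 over the 12 widely used subunits of complex IV. This last group includes Ndufa4, a complex IV subunit that was once assigned to complex I, and Cox7a2l, which helps complexes III and IV join into supercomplexes. Within complex I the lowest core subunit was Ndufs3 at 28.5 ± 1.42 (SD, n = 3). Among its accessory subunits Ndufa7 was highest at 219 ± 9.02 and Ndufab1, the mitochondrial acyl carrier protein, was lowest at 3.26 ± 0.334. The Ndufab1 value depends on a principal transcript of 3479 nt, long for this family.

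In complex II both ends of the order were membrane anchors, with Sdhd at 132 ± 1.90 and Sdhc at 49.3 ± 0.939. Their normalized counts were close, at 4665, 4692 and 4794 for Sdhd and 4640, 4551 and 4466 for Sdhc. The gap per length therefore rests on principal transcripts of 1231 and 3171 nt. In complex III the hinge protein Uqcrh was highest at 253 ± 5.42 and Uqcrq was lowest at 31.6 ± 1.96. The Uqcrq value depends on a principal transcript of 1521 nt. Cox4i1, the widely used form of complex IV subunit 4, was the most abundant member at 621 ± 9.43. Cox7c, at 15.3 ± 1.21, was the lowest of the widely used subunits of complex IV. Among the tissue isoforms Cox7a1 stood at 10.8 ± 1.92 and Cox7b2 at 0.421 ± 0.310. By the same measure the median was 187 over 16 nuclear ATP synthase subunits, 164 over 7 mitochondrially encoded subunits, 87.0 over ribosomal protein genes, 83.0 over glycolytic enzymes, 26.9 over regulators of mitochondrial biogenesis and 13.5 over respiratory chain assembly factors.

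**Figure D1:**
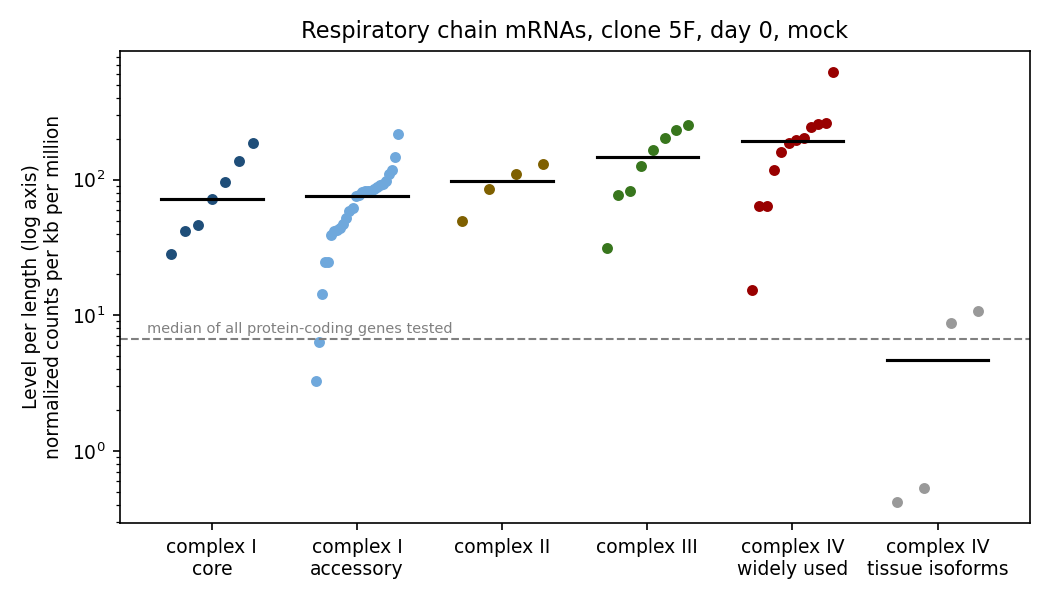
Level per length of 63 respiratory chain mRNAs (points, mean of 3 mock libraries of clone 5F at day 0) by complex on a log axis, in normalized CPM per kilobase. Black bars are group medians, from 4.68 in the tissue isoforms to 193 in the widely used complex IV subunits, and the dashed line is the median of 6.68 over all protein-coding genes tested.

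Counting only reads that map to a single place limits some of these levels. Short nuclear mRNAs of the respiratory chain have many processed copies in the genome. For 34 of the 67 members no 50-nt window of the principal transcript occurred exactly elsewhere in the genome. For 10 members at least 20% did: Cox7c at 71.5%, Uqcrb at 61.5%, Cox7a2l at 59.2%, Ndufs5 at 49.8%, Ndufs3 at 43.0%, Ndufb4 at 41.3%, Cox5b at 39.8%, Uqcr11 at 39.1%, Ndufa12 at 26.5% and Cox8a at 21.8%. The levels of these 10 are uncertain, and the loss of reads to copies was not measured directly. Copies were not searched for the genes of the other lists, so the list medians given beside the members may be too low by an unknown amount. Of 13 mitochondrially encoded subunits, 7 passed the filter on low counts. Ndufs5, an accessory subunit of complex I, had 0 to 11.2 normalized counts in the 12 mock libraries. Uqcrb and Cox7a2l, with larger shares of windows elsewhere, had far higher counts. The reason for the few counts of Ndufs5 was not tested.

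Most isoforms of complex IV that other tissues use were near or at background. Cox6a2, typical of heart and skeletal muscle, had 0 to 3 raw counts per mock library, Cox8b had 0 to 1 and Cox8c had 0 to 4. The hypoxia-linked isoform Cox4i2 had 9 to 20 raw counts and Cox7b2 had 1 to 22. Higher values came from Cox6b2, a testis-enriched isoform, with means of 5.22 to 6.68 CPM over the 4 groups, and from Cox7a1, a muscle-enriched isoform, with 3.67 to 5.15 CPM. Cox4i1, against which Cox4i2 is the alternative, had 12116 to 27273 raw counts in the same libraries.

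RefSeq promoters, from 250 bases before to 50 after the start on GRCm38.p6, were found for 54 of the 67 members and 27025 genes in all. The letters GCGCATGC, the core of the binding motif of NRF1, a known activator of respiratory chain genes, were present on either strand in 7 of the 54 (12.96%) and in 2.805% of all promoters. CCGGAAG, an ETS motif, was in 11 (20.37%) against 9.121%, and AAGATGG, a YY1 motif, was in 8 (14.81%) against 6.475%. GGGCGG was in 23 (42.59%) against 35.91%. The motifs can overlap one another, and a match describes letters in a window and not a bound site. The following 30-base stretches show the NRF1 letters, in capitals, in 4 members of complexes I, II and IV chosen as examples, read 5′ to 3′ on the strand of the gene. Capitals reading GCATGCGC are the motif on the opposite strand.
Sdhb, iron-sulfur subunit of complex II, chr4:140961206-140961235, plus strand: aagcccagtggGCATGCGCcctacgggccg
Ndufa6, accessory subunit of complex I, chr15:82354356-82354385, minus strand: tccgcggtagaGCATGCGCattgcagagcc
Ndufa11, membrane accessory subunit of complex I, chr17:56717691-56717720, plus strand: acctgcactgcGCGCATGCgcgcacgcctt
Cox6a1, widely used subunit of complex IV, chr5:115349102-115349131, minus strand: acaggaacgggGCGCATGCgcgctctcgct
The Ndufa6, Ndufa11 and Cox6a1 stretches lie upstream of their genes in the Gencode annotation, and the Sdhb stretch lies just inside the annotated 5′ end of the gene, which starts at 140961203.

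In CRAC, respiratory chain mRNAs had higher SKIV2L shares than most mRNAs. For each mRNA the deposited table gives the share of SKIV2L, XRN1 and MTR4 in their summed, scaled CRAC counts, so that the 3 values add up to 1 and a high share of one protein lowers the others. It also gives AVEN counts over the same sum. Because the counts of each protein were scaled to a common total, a share ranks mRNAs by relative binding. It does not measure which protein binds an mRNA most in the cell. The replicates were pooled by the authors, so no error can be given and no test was made. The table held 56 of the 67 members and 7240 mRNAs in all.

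The median SKIV2L share was 0.548 over the members and 0.267 over all mRNAs, and 54 of the 56 members were above the latter. SKIV2L had the highest share of the 3 proteins in 49 members (87.5%), against 26.5% of all mRNAs. A share over 0.5 for SKIV2L was reached by 39 members, against 11.8% of all mRNAs. The XRN1 median was 0.255 over the members and 0.337 over all mRNAs, and that of MTR4 was 0.186 and 0.319. The AVEN median was 0.353 against 0.295, with 38 of the 56 members above the latter. Over the 5160 mRNAs within the members' length range of 419 to 4371 nt the SKIV2L median was 0.294, and over the 6410 mRNAs within their range of RNA levels, 4.57 to 823 RPKM, it was 0.285. These ranges do not match the members in length or level. The median length was 868 nt over the members and 2471 nt over the mRNAs in the length range, and the median level was 109.9 RPKM over the members and 24.7 RPKM over the mRNAs in the level range. The part of length and level in the SKIV2L shares was therefore not tested.

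In complexes I to IV, the tissue isoform aside, the medians fell in the order SKIV2L, XRN1, MTR4. The SKIV2L median was 0.523 over 7 complex I core subunits, 0.550 over 26 accessory subunits, 0.538 over the 4 subunits of complex II, 0.595 over the 8 of complex III and 0.609 over 10 widely used subunits of complex IV. The highest SKIV2L shares were those of Ndufa5, an accessory subunit of the matrix arm of complex I, at 0.765, and of Ndufa4 at 0.757. Their XRN1 shares were 0.156 and 0.130. Ndufs6, a zinc-binding accessory subunit of complex I, had the highest AVEN value at 0.934, with a SKIV2L share of 0.587.

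Some members went against this order. XRN1 led for Cox7a2l at 0.685, with 0.156 for SKIV2L and the second-lowest AVEN value of the members at 0.0496. XRN1 also exceeded 0.5 for Ndufs7, a core subunit of complex I, at 0.646, and for Sdhd at 0.504. These last 2 genes were named after their values were seen. MTR4 led for Cox6b2 at 0.890, with 0.0694 for SKIV2L. This was the single tissue isoform in the table, and its RNA level was low in the libraries described above.

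**Figure D2:**
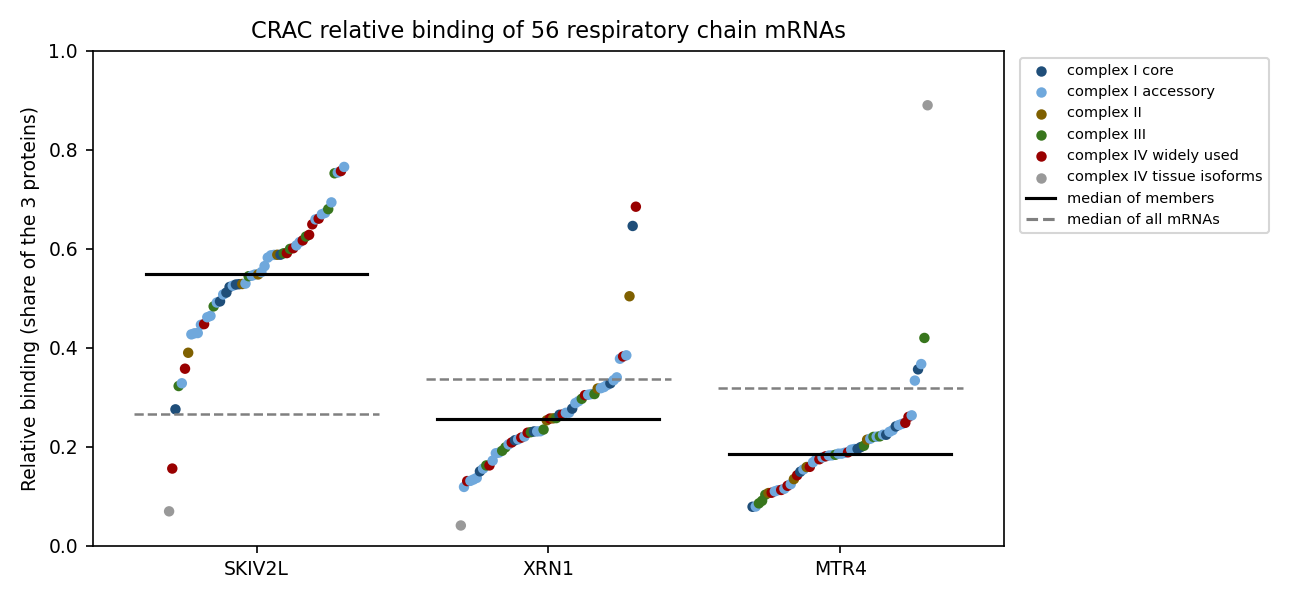
Relative CRAC binding of 56 respiratory chain mRNAs (points, ordered by value and coloured by complex) to SKIV2L, XRN1 and MTR4, as shares that add up to 1 for each mRNA. Black bars are the medians of the members (0.548, 0.255 and 0.186) and dashed lines those of 7240 mRNAs (0.267, 0.337 and 0.319).

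Related lists differed in the same table. All 12 nuclear subunits of ATP synthase had their highest share for SKIV2L, with a median of 0.668. For mRNAs of ribosomal proteins, also short and abundant, SKIV2L led in 38 of 55 with a median of 0.480, and for glycolytic enzymes in 9 of 13 with 0.461. Respiratory chain assembly factors, with a median of 0.307, had SKIV2L as the leading protein in 11 of 31. The 7 mitochondrially encoded subunits in the table had a SKIV2L median of 0.0400 and all had MTR4 as the leading protein. Whether these shares come from binding or from background reads of each purification was not tested. Across the 56 members, Spearman's rho of the SKIV2L share with the 7 fitted changes described below and with the half-life ran from -0.214 to 0.187. These correlations describe points that share libraries and are weak.

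Once transcription was blocked, respiratory chain mRNAs outlasted most other mRNAs. Spike-in RNA added with the lysis buffer set the scale between time points, and a half-life was fitted for each gene with a mean of at least 100 mock counts in clone 5F at day 0, which kept 61 members and 10571 protein-coding genes. In clone 5F at day 0 the median half-life was 10.1 h over the members and 4.68 h over all genes, and 58 of the 61 members were above the latter. In the libraries labelled day 4 of clone 5F it was 10.3 h against 4.72 h. In clone 7E it was 8.94 h against 4.72 h at day 0 and 7.30 h against 4.72 h at day 4. Size factors were found over all groups at each time, with a common spike-in factor for each time. This scaling holds the median of all genes nearly equal between groups, so it cannot show whether decay as a whole changed. Differences between groups are relative to the other mRNAs. After 360 min the median share of mock RNA left was 66.1% over the members and 40.4% over all genes in clone 5F at day 0, 67.7% and 40.1% in the libraries labelled day 4, 62.5% and 40.3% in clone 7E at day 0, and 56.6% and 40.0% at day 4.

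Half-lives longer than the 360 min of the course are extrapolated. The medians in clone 5F at day 0 were 9.27 h for the core and 10.2 h for the accessory subunits of complex I, 11.3 h for complex II, 9.88 h for complex III and 10.4 h for the widely used subunits of complex IV. No test was made of these differences.

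The longest fitted half-lives in clone 5F at day 0 were 18.3 h for Ndufa13, an accessory subunit also known as GRIM-19, 16.4 h for Ndufa6 and 15.3 h for Cox8a. Ndufa13 had 2042, 2156 and 2274 normalized counts in the 3 mock libraries and 1718, 1598 and 1872 after 360 min. These groups did not overlap, and its slope was -0.0378 ± 0.0101 (SE) in natural log units per hour. Cox8a was among the members with copies elsewhere.

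Cox7c went against the group. It had 248, 220 and 255 normalized counts in the mock libraries of clone 5F at day 0, 27.1 and 39.1 after 120 min, and 21.3, 26.8 and 22.5 after 360 min. Most of its signal was gone at the first time point and little more was lost later, so that the fitted half-life of 1.95 h describes no simple exponential. The other 3 groups gave 2.05 to 2.13 h. With 71.5% of its windows elsewhere in the genome, the counts of Cox7c are those of a small part of the transcript.

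Cox6b2 and Ndufab1 had the next shortest values, at 4.52 h and 4.64 h in clone 5F at day 0. For Ndufab1 the other groups gave 3.75 to 4.96 h. In clone 5F at day 0, 47.9% of the mock level of Ndufab1 was left after 120 min and 39.6% after 360 min. Most of its loss came before the first time point, so this fit too describes no simple exponential. For Cox6b2 the highest value was 7.84 h, in the libraries labelled day 4 of clone 5F. It had 132, 186 and 134 normalized counts in the mock libraries and 68.8, 60.3 and 50.4 after 360 min in clone 5F at day 0, which did not overlap. Both values lay close to the 4.68 h of all genes.

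**Figure D3:**
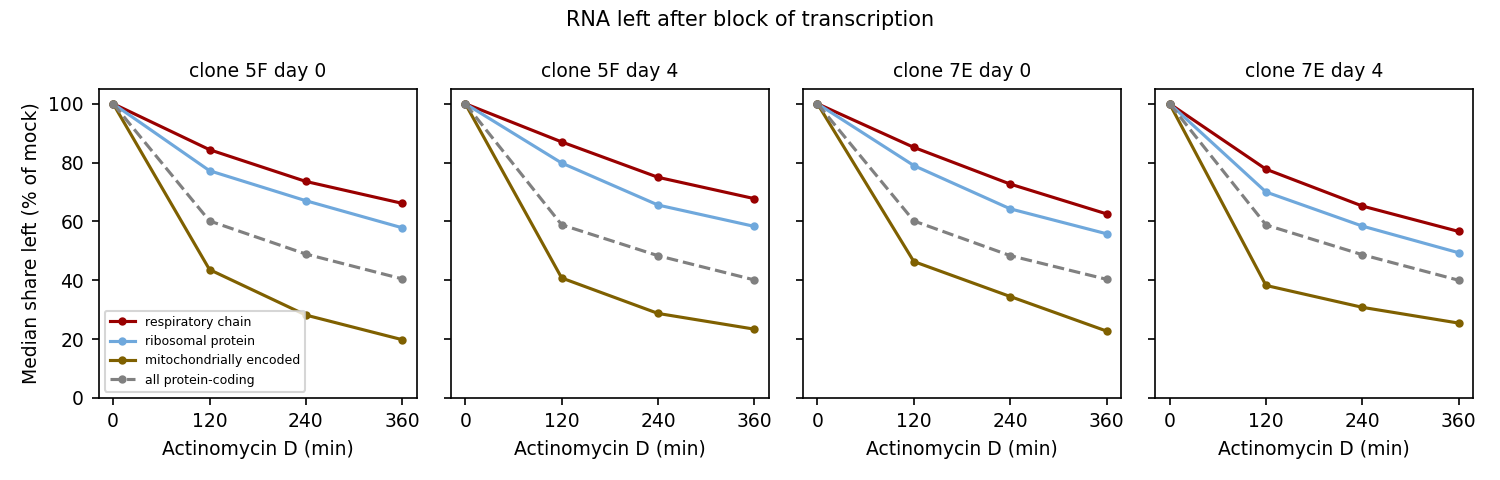
Median share of mock RNA left (%) after 0 to 360 min of actinomycin D for respiratory chain, ribosomal protein and mitochondrially encoded mRNAs and all protein-coding genes with at least 100 mock counts, in 4 panels by clone and day. At 360 min the respiratory chain mRNAs lie at 66.1, 67.7, 62.5 and 56.6%, above the median of all genes in each panel.

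Half-lives of related lists in clone 5F at day 0 were set beside those of the members, with no test of the differences. Nuclear ATP synthase subunits had a median half-life of 9.77 h (15 genes), within the range of the medians of the members' complexes. Glycolytic enzymes had 11.0 h (16) and cytochrome c and c1 together 7.46 h (2). Ribosomal protein mRNAs had 7.67 h (78), assembly factors 5.73 h (40) and regulators of mitochondrial biogenesis 2.98 h (9). The 7 mitochondrially encoded mRNAs with enough counts had 2.60 h. The median of these mitochondrially encoded mRNAs was below that of all genes, while that of the nuclear members was above it.

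Among steady-state levels in clone 5F, respiratory chain mRNAs were lower more often than higher in the libraries labelled day 4. Of 62 members tested with edgeR's quasi-likelihood test (Benjamini-Hochberg adjusted p under 0.05 over all genes), 17 were lower and 2 were higher. Over all 16354 genes tested, 11.6% were lower and 12.8% were higher, 24.5% in all. The median log2 change was -0.089 over the members and -0.0045 over all genes. All changes were small, between -0.32 and 0.20 among members with a mean of at least 100 counts.

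Complex III and complex IV held most of these calls. In complex III 4 of 8 members were lower, in complex II 2 of 4, among the widely used complex IV subunits 6 of 12, among complex I accessory subunits 4 of 28 and among the complex I core 1 of 7. Uqcrh had 4003, 3960 and 4126 normalized counts at day 0 and 3430, 3250 and 3136 in the libraries labelled day 4, which did not overlap. Its log2 change was -0.30 ± 0.0469 (SE; edgeR adjusted p = 7.89e-05). Sdhd went from 4665, 4692 and 4794 to 3980, 4039 and 3836, also without overlap, at -0.26 ± 0.0438 (edgeR adjusted p = 0.000228).

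Ndufb3, an accessory subunit in the membrane arm of complex I, had the largest fall, from 1159, 1114 and 1226 to 959, 971 and 876 normalized counts. Its log2 change was -0.32 ± 0.0612 (edgeR adjusted p = 0.000689). Cox7a2l fell from 2017, 1887 and 2107 to 1698, 1569 and 1601, at -0.30 ± 0.0544 (edgeR adjusted p = 0.000352), with counts that are uncertain because of copies elsewhere. All 3 libraries labelled day 4 lay below all 3 of day 0 for both genes. The core protein Uqcrc2 of complex III at -0.24 ± 0.0479 (edgeR adjusted p = 0.00103) and the complex IV subunit Cox7a2 at -0.22 ± 0.0465 (edgeR adjusted p = 0.00134) followed, and both lost the call without replicate 3 (adjusted p = 0.0708 and 0.0616).

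The 2 members that were higher, Cox5b at 0.20 ± 0.0601 (edgeR adjusted p = 0.0175) and Cox8a at 0.17 ± 0.0545 (edgeR adjusted p = 0.0289), were among the 10 with copies elsewhere, and both were named after their values were seen. Over all members, the 3 libraries labelled day 4 lay wholly below those of day 0 in 23 and wholly above in 4, against 18.9% and 18.9% of all genes. The number of calls changed with the replicate number left out, being 8 without replicate 1, 25 without replicate 2 and 6 without replicate 3. Whether this change was larger than that over all genes was not tested. With the summed mESC markers lower in the same libraries, their part in these falls was not tested.

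In clone 7E, where Skiv2l counts did fall, the respiratory chain again had more calls down than up at day 4. Of 63 members tested, 19 were lower and 5 were higher in the same test. Over all 16333 genes, 19.4% were lower and 20.7% were higher, 40.1% in all. The median log2 change was -0.056 over the members and -0.0084 over all genes.

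Uqcrh had the strongest call, from 3687, 3435 and 3805 normalized counts at day 0 to 2798, 2742 and 2646 at day 4. The groups did not overlap and the log2 change was -0.42 ± 0.0516 (SE; edgeR adjusted p = 6.47e-07). Sdhc went from 6826, 6965 and 7429 to 5468, 5581 and 5489, at -0.36 ± 0.0466 (edgeR adjusted p = 1.29e-06), and Sdhd from 4251, 3982 and 4330 to 3335, 3444 and 3329, at -0.31 ± 0.0490 (edgeR adjusted p = 1.65e-05). Both anchors of complex II were thus lower in every day 4 library than in any day 0 library.

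Cox7a1 had the largest fall, at -0.45 ± 0.137 (edgeR adjusted p = 0.0113), but few counts. It went from 124, 152 and 169 to 102, 109 and 116 normalized counts, and the call was lost without replicate 2 (adjusted p = 0.0636) and without replicate 3 (0.0525). Ndufv3, a small accessory subunit near the NADH site of complex I, followed at -0.28 ± 0.0575 (edgeR adjusted p = 0.000403) and the complex IV subunit Cox5a at -0.26 ± 0.0461 (edgeR adjusted p = 8.64e-05).

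The 5 members that were higher were Ndufb9 at 0.24 ± 0.0534 (edgeR adjusted p = 0.000951), Cox5b at 0.23 ± 0.0623 (0.00410), the complex I core subunit Ndufs8 at 0.22 ± 0.0564 (0.00326), Ndufb7 at 0.18 ± 0.0625 (0.0270) and Cox4i1 at 0.15 ± 0.0453 (0.0121). These 5 were named for this comparison after their values were seen, and the counts of Cox5b are uncertain because of copies elsewhere. The day 4 libraries lay wholly below those of day 0 in 23 members and wholly above in 6, against 24.3% and 24.5% of all genes. Without replicate 1 there were 13 calls, without replicate 2 there were 30 and without replicate 3 there were 14. These were likewise not compared with the change over all genes. Of the mESC markers 7 of 8 were lower and 0 higher in the same test, and their part in these falls was not tested.

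The scale decides what is meant by higher and lower here. The 3 day 4 mock libraries of clone 7E held 0.469 to 0.477 times the median amount of mRNA per spike-in, whereas the other 9 mock libraries held 0.965 to 1.12 times that amount. With the spike-ins of each library as its scale, 61 of 62 members were lower at day 4 and 0 were higher, with a median log2 change of -1.16 over the members and -1.11 over all genes. The study added a set amount of spike-ins to each sample with the lysis buffer. This scale therefore cannot tell fewer cells in a sample from less mRNA per cell. The values above are therefore changes relative to the other mRNAs of the same library.

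**Figure D4:**
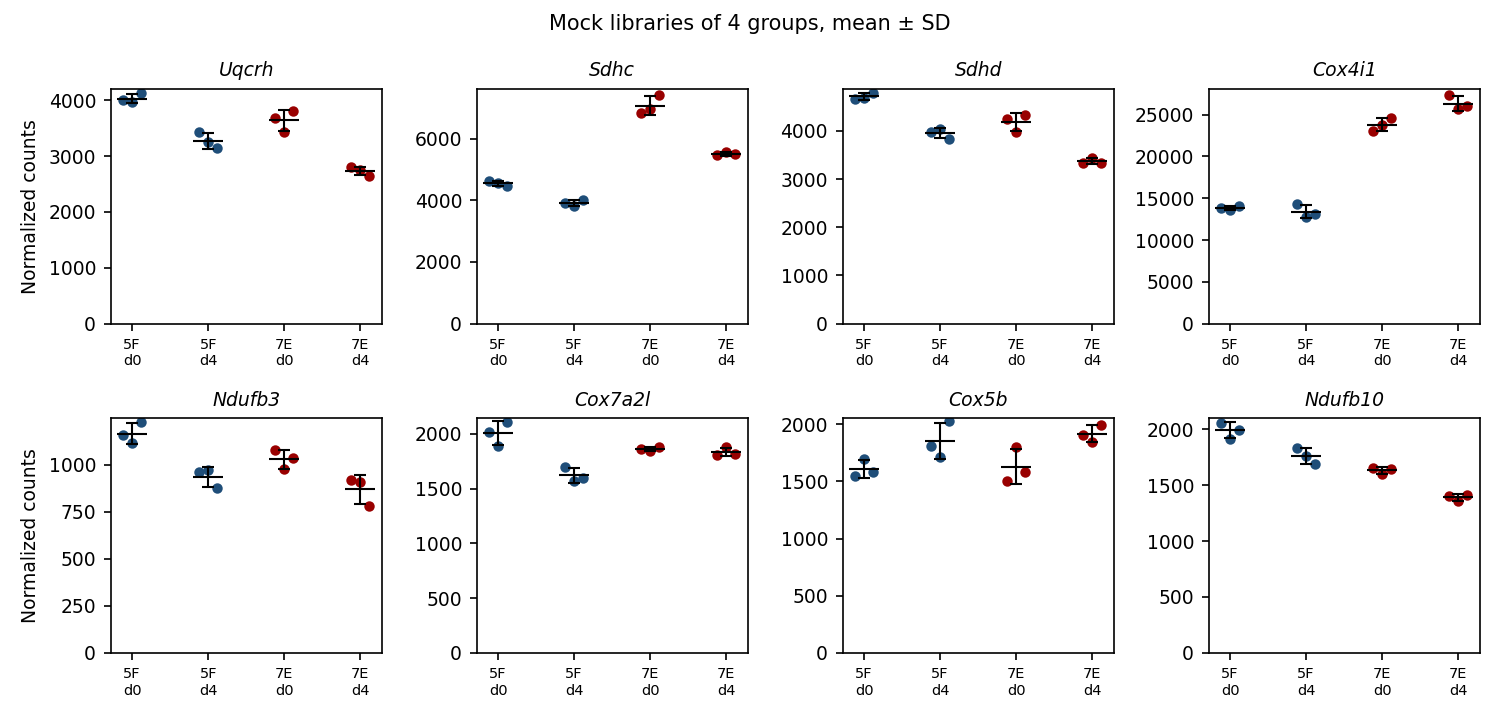
Normalized counts of 8 respiratory chain mRNAs in each mock library (points) of clones 5F (blue) and 7E (red) at day 0 (d0) and day 4 (d4) of 4OHT, with the mean and SD of 3 libraries. Uqcrh, Sdhc, Sdhd, Ndufb3 and Ndufb10 lie lower at day 4 in both clones, Cox5b lies higher, and Cox4i1 and Sdhc are higher in clone 7E than in clone 5F.

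The day comparisons of the clones share no libraries, but they are not independent, because same-numbered mock libraries of the clones deviated together. The correlation of their deviations from the group means was 0.146 to 0.349 at day 0 and 0.156 to 0.373 at day 4, in 3 of 3 pairs each. In 40 of the 62 members tested in both (64.5%), the fitted change was below 0 in both clones, in 11 (17.7%) it was above 0 in both and in 11 the signs differed. Over all 15835 genes tested in both, 37.2% were below 0 in both, 34.8% above 0 in both and 28.0% differed in sign. Of the members called lower, 13 were called in both clones, 76.5% of the 17 in clone 5F and 68.4% of the 19 in clone 7E. Over all genes tested in both, 1225 were lower in both, 64.6% of those in clone 5F and 38.9% of those in clone 7E. The 13 were Ndufa2, Ndufb3 and Ndufb10 of the complex I accessory group, Ndufv2 of its core, Sdhc and Sdhd of complex II, Uqcrc2, Uqcrfs1 and Uqcrh of complex III, and Cox5a, Cox6b1, Cox7a2 and Cox7b of complex IV. Cox5b was called higher in both.

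**Figure D5:**
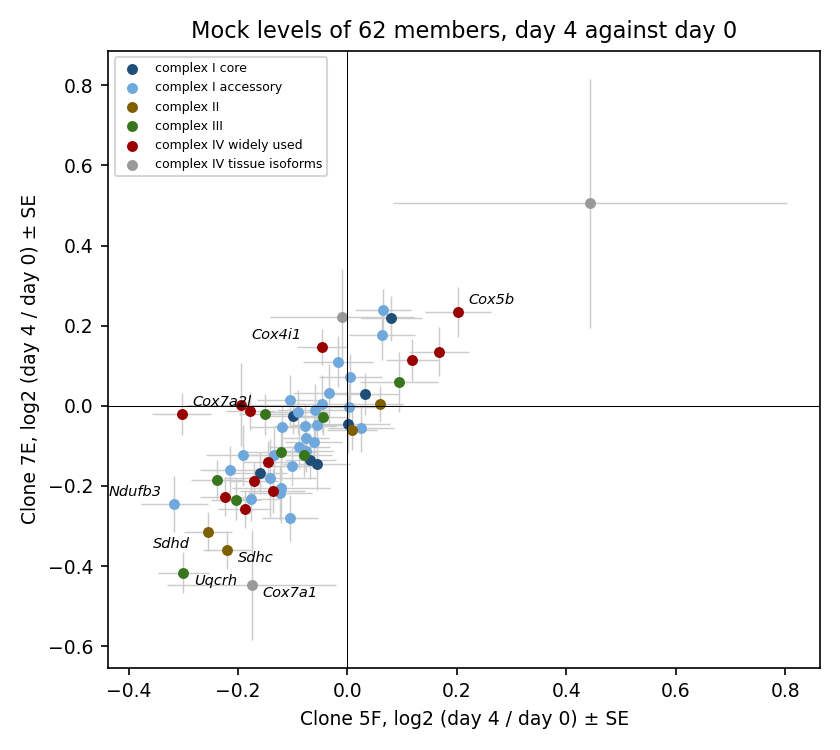
Log2 change of mock levels at day 4 against day 0 in clone 5F (x axis) and clone 7E (y axis) for 62 respiratory chain mRNAs, coloured by complex, with bars of 1 standard error on each axis. Of these, 40 lie below 0 on both axes and 11 above 0 on both, and the unlabelled point at the far upper right is Cox4i2, with 9 to 20 raw counts per library.

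The difference between the responses of the clones was tested directly, on the 12 mock libraries that also give the comparisons above. Of 63 members 2 passed and both had a more positive change in clone 7E, against 6.64% of 17187 genes in that direction, 5.29% in the other and 11.9% in either. Cox7a2l differed by 0.28 ± 0.0712 (SE; edgeR adjusted p = 0.00976). It fell in clone 5F and had 1865, 1839 and 1876 normalized counts at day 0 and 1810, 1879 and 1816 at day 4 in clone 7E, which overlapped. Cox4i1 differed by 0.19 ± 0.0619 (edgeR adjusted p = 0.0440).

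In clone 5F Cox4i1 had 13874, 13622 and 14039 normalized counts at day 0 and 14269, 12807 and 13151 in the libraries labelled day 4, which overlapped. In clone 7E it had 23007, 23769 and 24599 at day 0 and 27346, 25628 and 26036 at day 4, which did not. Its call was lost with a replicate block (adjusted p = 0.0533) and without any 1 of the 3 replicate numbers (adjusted p = 0.0887 to 0.231), and that of Cox7a2l without replicate 1 (0.0870) or 3 (0.0975). Scaled by own spike-ins both differences turned negative, at -0.84 for Cox4i1 and -0.75 for Cox7a2l, where the median over all genes was -1.03.

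Before 4OHT the clones already differed in several members. Of 63 members, 7 were higher and 15 were lower in clone 7E than in clone 5F at day 0, against 18.1% and 18.1% of 17187 genes and 36.2% in all. The median log2 difference was -0.045 over the members and -0.0076 over all genes. This comparison uses the day 0 libraries of both day comparisons above. The 3 libraries of clone 7E lay wholly above those of clone 5F in 9 members and wholly below in 21, against 23.2% and 24.2% of all genes.

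The largest differences were upward. Cox4i1, with the counts given above, was higher by 0.78 ± 0.0440 on the log2 scale (SE; edgeR adjusted p = 1.58e-12). Sdhc had 4640, 4551 and 4466 normalized counts in clone 5F and 6826, 6965 and 7429 in clone 7E, a difference of 0.64 ± 0.0419 (edgeR adjusted p = 2.37e-11). Neither gene overlapped between the clones.

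Ndufb7 was higher by 0.57 ± 0.0672 (edgeR adjusted p = 3.95e-07) and Ndufa13 by 0.30 ± 0.0624 (edgeR adjusted p = 0.000528), a call lost with own spike-ins (0.14, adjusted p = 0.0899). Ndufb10, an accessory subunit in the membrane arm, had the largest difference downward, at -0.29 ± 0.0487 (edgeR adjusted p = 5.61e-05). It had 2061, 1917 and 1999 normalized counts in clone 5F and 1659, 1600 and 1644 in clone 7E, without overlap. In complex III 4 of 8 members were lower and 0 were higher. With own spike-ins 4 members were higher and 41 lower, the median over all genes moving to -0.17 and that of the members to -0.21.

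Decay itself gave no call among the members. The slope of the log2 level on time was compared between days in each clone and between clones at day 0, and 0 of 63, 0 of 63 and 0 of 64 members passed with edgeR's quasi-likelihood test, against 0.192%, 0.906% and 0.0398% of all genes. By direction, a slope was called higher and lower in 0.13% and 0.0624% of all genes between days in clone 5F, in 0.41% and 0.496% in clone 7E, and in 0.0348% and 0.00497% between clones. At an unadjusted p under 0.05 there were 0, 5 and 1. DESeq2 and limma gave 0 calls among the members in each as well. Over the 61, 60 and 60 members with a mean of at least 100 counts, the median standard error of the difference in slope was 0.0221, 0.0225 and 0.0224 log2 units per hour. A call after adjustment over all genes takes several standard errors, so differences well above that size could go uncalled at this number of libraries. Between days in clone 7E, fitted differences in these members reached -0.0655 log2 units per hour and none passed this test.

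In clone 7E most fitted differences in slope between days were below 0, though none passed the test. Of 63 members 58 were negative, with a median of -0.0226 log2 units per hour against -0.000764 over all genes. Other long-lived genes showed the same sign. Of 768 other protein-coding genes with half-lives between 8.98 and 11.3 h in clone 5F at day 0, 86.7% were negative with a median of -0.0255, and 13 were called lower. Scaled by own spike-ins the member median was -0.00286 and that of all genes 0.0207. The 5 members with an unadjusted p under 0.05, named after their values were seen, were Ndufa9, Ndufa3, Cox5a, Ndufb4 and Ndufa10, and the lowest edgeR adjusted p was 0.471, for Ndufa9. With time points as separate levels in place of a slope, Ndufa3 passed at -0.0462 ± 0.0131 log2 units per hour (edgeR adjusted p = 0.0418). Between the clones at day 0, 57 of 64 members were negative with a median of -0.0146, and in clone 5F 28 of 63 were negative between days with a median of 0.00239.

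Genes of the surrounding pathways were set beside the members by the same tests. In the mock libraries of clone 5F, 6 of 16 nuclear ATP synthase subunits were lower and 0 higher in the libraries labelled day 4, and in clone 7E 8 of 16 were lower and 0 higher at day 4. Of the mitochondrially encoded subunits 7 could be tested, with 1 and 2 lower. Of 42 assembly factors 7 were lower and 1 higher in clone 5F, and 13 were lower and 3 higher in clone 7E. Cytochrome c and c1 had 0 calls in both. The 9 regulators of mitochondrial biogenesis had 1 lower and 1 higher in clone 5F and 2 lower in clone 7E. Of 16 glycolytic genes 3 were lower and 2 higher in clone 5F, and 7 were lower and 2 higher in clone 7E. Of 84 ribosomal protein genes, a list of other short and abundant mRNAs, 9 were lower and 11 higher in clone 5F and 3 were lower and 15 higher in clone 7E.

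Calls among the cell type markers moved beside those of the members. In clone 5F, 3 of 8 mESC markers were lower and 2 higher in the libraries labelled day 4, with 2 lower and 1 higher among 6 endoderm and among 4 neuroectoderm markers, 1 of 3 feeder markers higher and 0 calls among 3 mesoderm markers. In clone 7E, 7 of 8 mESC markers were lower at day 4, and 3 of 4 neuroectoderm markers were lower and 1 higher. In the same comparison 3 of 3 feeder markers were higher, with a median log2 change of 1.30, as were 2 of 6 endoderm and 1 of 3 mesoderm markers. Between the clones at day 0, 6 of 6 endoderm markers were lower in clone 7E, with a median of -3.16, as were 3 of 3 feeder markers, with a median of -1.62. Of the neuroectoderm markers 3 were higher and 1 lower, of the mESC markers 4 were higher and 2 lower, and of the mesoderm markers 1 was higher and 1 lower. Their part in the members' results was not tested.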

How the data were processed

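RNA was depleted of ribosomal RNA, made into unstranded libraries and sequenced as 50-nt single reads. The authors mapped the reads with STAR to GRCm38 with the ERCC spike-ins and deposited counts of uniquely mapped reads per gene. Relative binding was deposited as a ratio, each protein's CRAC counts over the total of 3 proteins, and the RPKM values are the authors' median of 3 tagged lines. Half-lives fitted by the authors and their comparison columns (fold changes and p-values) were not used. Gene symbols came from Gencode M21.

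Normalized counts used median-ratio size factors, found separately at each time, and a common ERCC factor for each time (1, 0.657, 0.538 and 0.441 at 0, 120, 240 and 360 min), from 34 ERCC sequences with means over 50. edgeR 4.0.16 (quasi-likelihood test, filterByExpr, R 4.3.3) was run over all genes, and SE was the log2 difference over the root of F. Natural log counts (plus 1) were fitted on time for half-lives. DESeq2 1.42.0, limma 3.58.1, TMM, own spike-ins, no filter, an all-group fit, time points as levels, no mock libraries, a replicate block and left-out replicates were alternatives. The tests were run on simulated counts of independent libraries, with planted changes larger than those of the members in the reported scaling. This check does not cover changes as small as those of the members, or libraries that deviate together. Replicate numbers paired the mock libraries of clones 5F and 7E at day 0 (r = 0.146 to 0.349 in 3 of 3 pairs) and at day 4 (r = 0.156 to 0.373 in 3 of 3) but not the days of a clone (r = -0.298 to -0.0296).

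Named members were up to 6 per comparison with the largest called change, a mean of at least 100 counts and a sign kept without each replicate, the extremes of level, half-life and binding, and the tissue isoforms. The members, lists and rule were chosen with earlier results of these data known. The values of 1 member that met the rule are not reported here.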

Additional observations from a re-analysis of the deposited data

Results flagged for a closer look

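In a direct test of clone by day over 12 mock libraries, the response to 4OHT differed between the clones in 2 of 63 members. Over all 17187 genes tested, 11.9% passed, a larger share than among the members. Cox7a2l differed by 0.28 on the log2 scale (edgeR adjusted p = 0.00976), lower in all 3 libraries labelled day 4 of clone 5F and overlapping between days in clone 7E. Cox4i1 differed by 0.19 (edgeR adjusted p = 0.0440), overlapping between days in clone 5F and higher in 3 of 3 day 4 libraries of clone 7E. Cox4i1 lost its call with a replicate block and without any single replicate number. Cox7a2l lost its call without some replicate numbers, and its counts are uncertain because of copies elsewhere.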

How the results depend on the processing

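Leaving out 1 replicate number gave 6 to 25 calls for clone 5F between days (19 with all libraries), 13 to 30 for clone 7E (24), 14 to 19 between clones at day 0 (22) and 0 to 1 for the difference of responses (2). These counts of members were not compared with the change in calls over all genes. The member median half-life in clone 5F at day 0 was 9.74 to 10.7 h with 1 left out (10.1 h with all) and 11.2 h without the mock libraries. With own spike-ins there were 61 calls in clone 7E, 45 between clones, 61 for the difference of responses, and a median half-life of 8.68 h in clone 7E at day 4 (7.30 h in the reported scaling), and Cox7a2l and Cox4i1 turned to -0.75 and -0.84. The difference of responses had 1 call with a replicate block and 1 among members with under 20% of windows elsewhere, an alternative chosen after seeing the data. The members' excess in SKIV2L share was 0.281 against all mRNAs, 0.254 within their length range and 0.263 within their RPKM range, ranges that do not match the members' medians. With time points as levels 1 member was called for decay in clone 7E.

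The replicate block gave 13 calls in clone 5F, 19 in clone 7E and 21 between clones. Between days the numbers did not pair the mock libraries, and over all time points 29 of 46 same-numbered pairs correlated best with their own number. Over all genes, own spike-ins moved the calls in clone 7E from 6551 to 15290 and those for the difference of responses from 2052 to 14401. For decay, the 37 calls in clone 5F became 115 with time points as levels, 19 with own spike-ins and 14 without mock libraries. The 168 calls in clone 7E became 902, 106 and 236, in the same order, 276 with DESeq2 and 261 with all groups, and the 8 between clones became 352, 3 and 61, 28 with DESeq2 and 4 with limma. Of the comparisons of single named members, 179 kept direction and side of the threshold, 11 lost the call and 2 reversed.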
